A study of Mus musculus with 12 samples.

Results

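The transcripts described here encode the machinery that displays peptides on MHC molecules. Of 10 listed members, 8 were found by gene symbol among the 10697 genes of the expression table: the class I heavy chains *H2-K1* and *H2-D1*, the light chain *B2m*, the peptide transporter subunits *Tap1* and *Tap2*, tapasin (*Tapbp*), and the immunoproteasome subunits *Psmb8* and *Psmb9*. The class II members *Cd74* and *H2-Aa* were not analysed here, so the class II side below rests on lists of related genes.

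The cells were primary mouse adult fibroblasts (MAFs) of wild-type genotype, grown out of minced biopsies from C57BL/6J mice (C57BL6/j in the labels) in serum-supplemented medium. All mice of the study were male. One group of 6 libraries came from cells given 100 µM thymol, a phenolic monoterpene of thyme and oregano, dissolved in DMSO, and the other group of 6 libraries came from cells given the same volume of DMSO alone, both for 24 h. The labels do not say whether the 6 libraries of a group came from separate cultures or animals, so the p-values measure the spread between these libraries, which may be technical.

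Transcripts were measured by QuantSeq, which primes at the poly(A) tail and gives about 1 read per transcript, so levels can be compared between genes without dividing by length. Levels are log2 CPM, the log2 of counts per scaled library total with a small prior added. The libraries held between 5435985 and 9049796 reads over the retained genes. In the fit of all genes with limma, 238 genes (2.22%) passed an adjusted p of 0.05, of which 70 (0.654%) were higher and 168 (1.57%) lower with thymol. The labelled cell type was checked against marker lists. Of 14 fibroblast markers, 12 were measured, and their summed level was 10174 to 11324 CPM with DMSO and 9236 to 10072 CPM with thymol, lower without overlap. Such a sum is weighted to the most abundant transcripts, and of the 12 markers 9 were lower and 3 higher with thymol. All 17 macrophage markers were measured too, at 18890 to 20879 CPM with DMSO and 19096 to 22798 CPM with thymol, a higher summed level than that of the fibroblast markers, over lists of unequal length. Macrophages use both MHC paths, and how far each cell type contributed to the values below was not tested.

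Class I molecules are carried by nearly all nucleated cells and show peptides from the cell's own proteins to CD8+ T cells. The proteasome cuts the proteins, TAP pumps the peptides into the endoplasmic reticulum, and tapasin holds the empty heavy chain and its light chain beside TAP until a peptide is bound. Class II molecules are largely restricted to antigen-presenting cells such as macrophages, dendritic cells and B cells, and show peptides from engulfed material after lysosomal proteases have removed their chaperone, the invariant chain. Interferon gamma raises both paths, through IRF1 and the coactivators NLRC5 for class I and CIITA for class II.

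The promoters of the 3 class I chain genes are shown because each held, within 30 bases, a match to the NF-κB consensus and a match to an IRF-type motif, the elements for which class I promoters are known. The sequences are from RefSeq on GRCm38.p6, written 5′ to 3′ on the strand of the gene. Capitals mark the matches, and the letters between them are in lower case.
*H2-K1*: GGGGATTCCCCatctccacagTTTCACTTC
*H2-D1*: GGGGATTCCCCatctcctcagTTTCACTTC
*B2m*: GAAACTGAAAatgGGAAAGTCCC
The *H2-K1* stretch lies at chr17:34000429-34000458 on the minus strand, from position -111 to -82 of the RefSeq start site, and the *H2-D1* stretch at chr17:35262923-35262952 on the plus strand, from -171 to -142. The *B2m* stretch lies at chr2:122147548-122147570 on the plus strand, from -139 to -117. The GENCODE span of *H2-D1* begins at 35262730, upstream of its stretch, so the position of that stretch depends on the annotation. In both heavy chain genes 2 overlapping NF-κB matches come first and GAANNGAAA follows on the opposite strand, while in *B2m* a longer IRF-type motif (GAAA, any 2 bases, GAAA) comes first on the gene's strand and the NF-κB match follows on the opposite strand. The promoter windows of *H2-K1* and *H2-D1* were identical at 211 of 239 aligned bases (88.3%). Over the 32851 mouse promoters of the same length in the table, searched on both strands, the NF-κB consensus occurred in 4.51%, GAANNGAAA in 7.52% and the longer motif in 3.44%. Promoters were listed for 7 of the 8 members, *Tap2* being the other one, and 2 were listed for *H2-K1*, of which the first was used. None of these 3 motifs was matched in the windows of *Tap1*, *Tapbp*, *Psmb8* or *Psmb9*. The gene spans given below are from GENCODE and begin upstream of the RefSeq start sites for *H2-D1*, *Tapbp*, *Psmb8* and *Psmb9*. The windows of these genes lie wholly inside those spans, so they may hold transcribed sequence, and a missing match there says little about the promoter. The motifs were chosen after the sequences had been read, and a match is a string of letters and not a measured site.

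The comparison asked how transcripts of the class I path, beside those of class II, differed between thymol and DMSO. *H2-D1* was the member that rose, by 18.0%, and the other 7 class I members did not pass the test. Thus 1 of 8 passed and was higher and 0 of 8 were lower, against the 2.22% of all genes that passed. The fitted differences were positive for 7 of the 8, with a median of 0.074 on the log2 scale beside a median of 0.0026 over all genes. For 0 of the 8 were the thymol and DMSO libraries fully separated, as they were for 180 genes (1.68%) of the whole table.

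**Figure D1:**
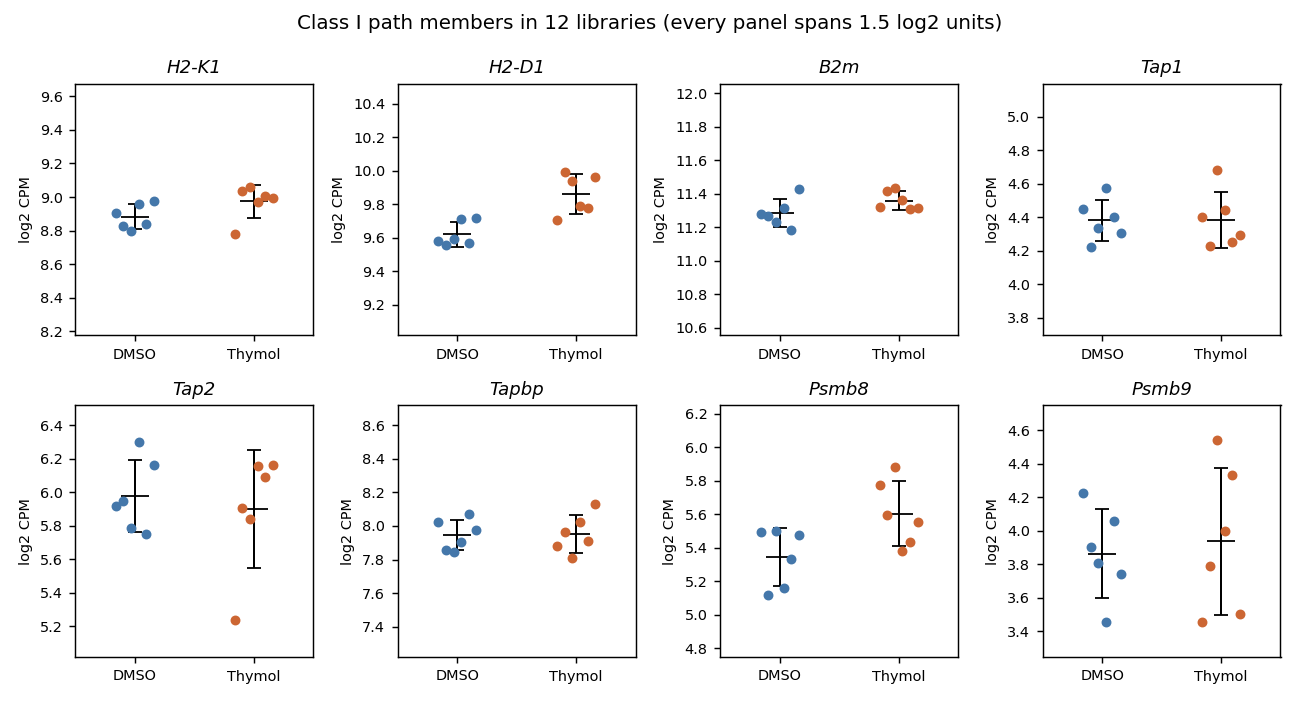
Level of the 8 class I path members (log2 CPM, y axis) in each of the 6 DMSO and 6 thymol libraries. Points are libraries, the long bar is the mean and the whiskers are 1 SD, and every panel spans the same 1.5 log2 units. The *H2-D1* means are 9.62 with DMSO and 9.86 with thymol, the thymol libraries of *Psmb8* and *H2-K1* lie above every DMSO library in 4 of 6 cases each, and 1 thymol library stands low for *H2-K1* and *Tap2*.

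The heavy chains form the peptide groove and are the part of the molecule that differs between individuals. *H2-D1* (chromosome 17, 35262730 to 35267499, plus strand) ranged from 9.56 to 9.72 log2 CPM with a median of 9.59 in the 6 DMSO libraries, and from 9.71 to 9.99 with a median of 9.87 in the 6 thymol libraries. Of the 6 thymol libraries 5 lay above every DMSO library, and the lowest, thymol replicate 1, lay just under the highest DMSO library. The means were 9.62 ± 0.074 and 9.86 ± 0.12 log2 CPM (SD, n = 6 each), and the log2 fold change was 0.24 ± 0.051 (SE, limma adjusted p = 0.0024). Its reads numbered 4736 to 6206 per DMSO library and 5183 to 7972 per thymol library. In bulk RNA, more cells of a type and more RNA per cell cannot be told apart. Without the mean-variance trend in limma the difference was the same and the adjusted p was 0.19. In the 3 odd-numbered libraries of each group alone the log2 fold change was 0.23 (limma adjusted p = 0.24). In the 3 even-numbered libraries of each group it was 0.25 (limma adjusted p = 0.0074).

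*H2-K1* (chromosome 17, 33996017 to 34000347, minus strand) ranged from 8.80 to 8.97 log2 CPM with a median of 8.87 with DMSO, and from 8.78 to 9.06 with a median of 9.0 with thymol. The thymol group held both the lowest library, replicate 1, and the 4 highest, so the thymol range enclosed the DMSO range. Its log2 fold change was 0.091 ± 0.053 (SE, limma adjusted p = 0.53), with a 95% interval from -0.015 to 0.20.

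Because the heavy chains share sequence, the ratio of *H2-D1* to *H2-K1* within a library was compared as well, a ratio chosen after the values had been seen. *H2-D1* gave 1.67 reads per read of *H2-K1* with DMSO and 1.85 with thymol. On the log2 scale the ratio was 0.74 ± 0.039 in the DMSO group and 0.89 ± 0.078 in the thymol group (SD, n = 6 each), a difference of 0.15 (exact two-sided permutation test, p = 0.0043). In 5 of 6 thymol libraries it lay above every DMSO library, with thymol replicate 5 at 0.77 under the highest DMSO value of 0.80. The ratio does not depend on library scaling. It does depend on reads being assigned to the right heavy chain. Of the 50-base windows in the last 500 bases of the annotated transcripts, 9.60% of those of *H2-K1* and 8.92% of those of *H2-D1* also occurred in other genes, among them each other. How many reads this affected was not tested, and the levels of both genes are uncertain for that reason.

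*B2m*, the invariant light chain that all classical class I molecules need to reach the surface, was the member with the highest level. Its gene lies on chromosome 2, 122147686 to 122153083, plus strand, and it ranked 33 of 10697 genes by mean level. It ranged from 11.18 to 11.43 log2 CPM with a median of 11.27 with DMSO, and from 11.31 to 11.43 with a median of 11.34 with thymol. The thymol values were confined to the upper part of the DMSO range, and 1 of them lay above it. The log2 fold change was 0.076 ± 0.045 (SE, limma adjusted p = 0.54), with a 95% interval from -0.014 to 0.17, so a rise of the size seen for *H2-D1* lay outside it. The difference was 0.010 after quantile normalization, 0.12 in the odd-numbered and 0.030 in the even-numbered libraries. In linear terms *B2m* stood at 2496 CPM with DMSO and 2629 CPM with thymol, against 789 and 933 CPM for *H2-D1* and 472 and 504 CPM for *H2-K1*.

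The peptide transporter and its bridge to the heavy chain did not differ detectably. *Tap1* (chromosome 17, 34187553 to 34197225, plus strand) encodes the first subunit of the transporter. It ranged from 4.23 to 4.58 log2 CPM with a median of 4.37 with DMSO and from 4.23 to 4.68 with a median of 4.35 with thymol. The groups covered nearly the same range, and the means were both 4.38. The 95% interval of the log2 fold change ran from -0.28 to 0.28 (limma adjusted p = 1.0), a width set in part by 105 to 170 reads per library.

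*Tap2* (chromosome 17, 34203527 to 34216321, plus strand), the partner subunit, had 242 to 615 reads per library. It ranged from 5.75 to 6.30 log2 CPM with a median of 5.93 with DMSO and from 5.24 to 6.16 with a median of 6.00 with thymol. Thymol replicate 1 was the lowest of the 12 libraries by far, and the other 5 thymol libraries lay within the DMSO range. The log2 fold change was -0.079 ± 0.11 (SE, limma adjusted p = 0.88), and it was 0.054 without thymol replicate 1. *Tapbp* (chromosome 17, 33915899 to 33929292, plus strand), the chaperone that edits the bound peptide, ranged from 7.85 to 8.07 log2 CPM with a median of 7.94 with DMSO and from 7.81 to 8.13 with a median of 7.94 with thymol. The DMSO range lay inside the thymol range, and the 95% interval of the log2 fold change ran from -0.11 to 0.13 (limma adjusted p = 0.99). Some 3′ windows of *Tap1* (2.75%, shared with *Tap2*) and of *Tapbp* (4.83%, shared with the neighbouring *Zbtb22*) were not unique.

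*Psmb8* and *Psmb9* encode 2 of the 3 catalytic subunits that replace their constitutive counterparts in the immunoproteasome. *Psmb8* (LMP7; chromosome 17, 34197721 to 34201454, plus strand) ranged from 5.12 to 5.50 log2 CPM with a median of 5.41 with DMSO, and from 5.38 to 5.88 with a median of 5.58 with thymol. Of the thymol libraries 4 lay above every DMSO library and 2 lay within the DMSO range. The log2 fold change of 0.26 ± 0.11 (SE) had a larger error than that of *H2-D1* (0.24 ± 0.051), and it did not pass the test (limma adjusted p = 0.27).

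*Psmb9* (LMP2; chromosome 17, 34181987 to 34187764, minus strand) was the member with the lowest level, at 60 to 180 reads per library. It ranged from 3.45 to 4.22 log2 CPM with a median of 3.86 with DMSO and from 3.45 to 4.54 with a median of 3.9 with thymol. The groups began at the same level, and the thymol libraries were the more spread, with SDs of 0.44 and 0.27. The log2 fold change was 0.072 ± 0.19 (SE, limma adjusted p = 0.95). *Psmb9* and *Tap1* are read from start sites that lie 225 bases apart on opposite strands in RefSeq. By the GENCODE coordinates printed here the spans of these genes overlap, so the distance depends on the annotation.

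**Figure D2:**
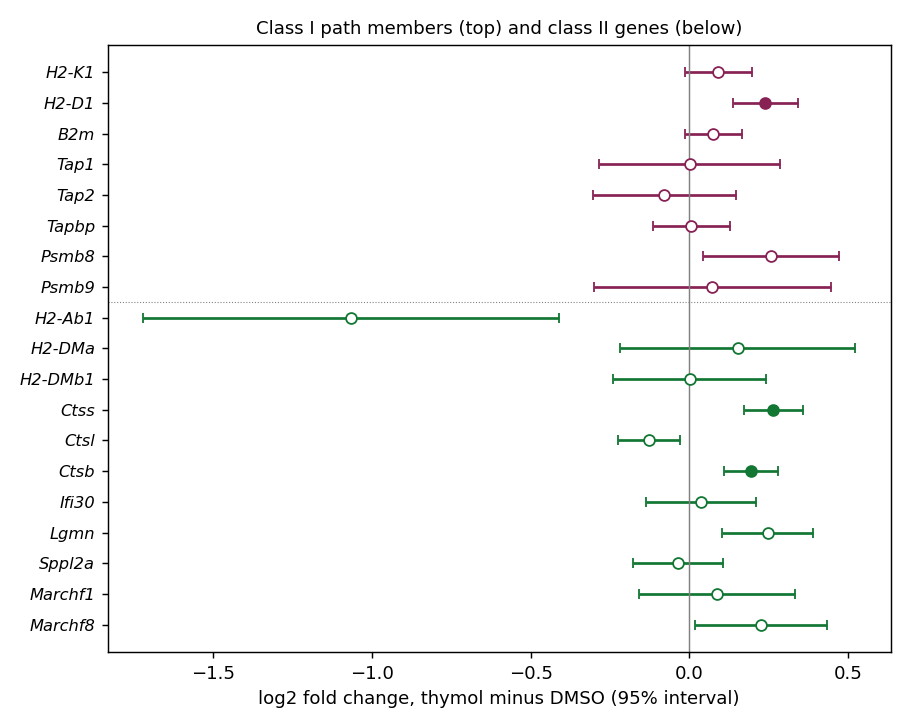
Log2 fold change, thymol minus DMSO, of the 8 class I path members (top) and of the 11 measured genes of the class II lists (below), with 95% intervals from limma. Filled points passed an adjusted p of 0.05, as *H2-D1*, *Ctss* and *Ctsb* did, and the widest interval is that of *H2-Ab1*, from -1.72 to -0.41.

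Each inducible catalytic subunit takes the place of 1 constitutive subunit, so the transcripts of each pair were compared as a ratio within a library. In bulk RNA the 2 transcripts may come from different cells. How far the ratio reflects the forms of the proteasome within a cell was not tested. The log2 ratio of *Psmb8* to *Psmb5* ranged from -0.45 to -0.01 with DMSO and from -0.11 to 0.47 with thymol. In 5 of 6 thymol libraries it was higher than in every DMSO library, with thymol replicate 2 within the DMSO range. The means were -0.19 ± 0.17 and 0.19 ± 0.21 (SD, n = 6 each), a difference of 0.38 (exact two-sided permutation test, p = 0.0065, adjusted over 3 ratios p = 0.019). Behind it stood 2 differences that did not pass on their own, that of *Psmb8* and that of *Psmb5* (log2 fold change -0.12, limma adjusted p = 0.77). Leaving out single libraries gave differences from 0.32 to 0.44. By sign flips over replicate blocks the call was lost (adjusted p = 0.19). It was 0.43 in the odd-numbered and 0.32 in the even-numbered libraries alone, where 3 against 3 cannot reach the threshold.

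For the other subunit pairs the difference was within the spread between libraries. The log2 ratio of *Psmb9* to *Psmb6* was -3.48 ± 0.16 in the DMSO group and -3.44 ± 0.48 in the thymol group (SD, n = 6 each; exact two-sided permutation test, p = 0.85). For *Psmb10*, the inducible subunit outside the member list, and *Psmb7* the log2 ratio was -1.38 ± 0.28 with DMSO and -1.43 ± 0.26 with thymol (exact two-sided permutation test, p = 0.72). In level the inducible subunit was near its counterpart for *Psmb8*, with 0.88 reads per read of *Psmb5* with DMSO and 1.14 with thymol, and far below it for *Psmb9*, with 0.089 and 0.092 reads per read of *Psmb6*. Whether the difference for *Psmb8* was larger than those of the other subunits was not tested.

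**Figure D3:**
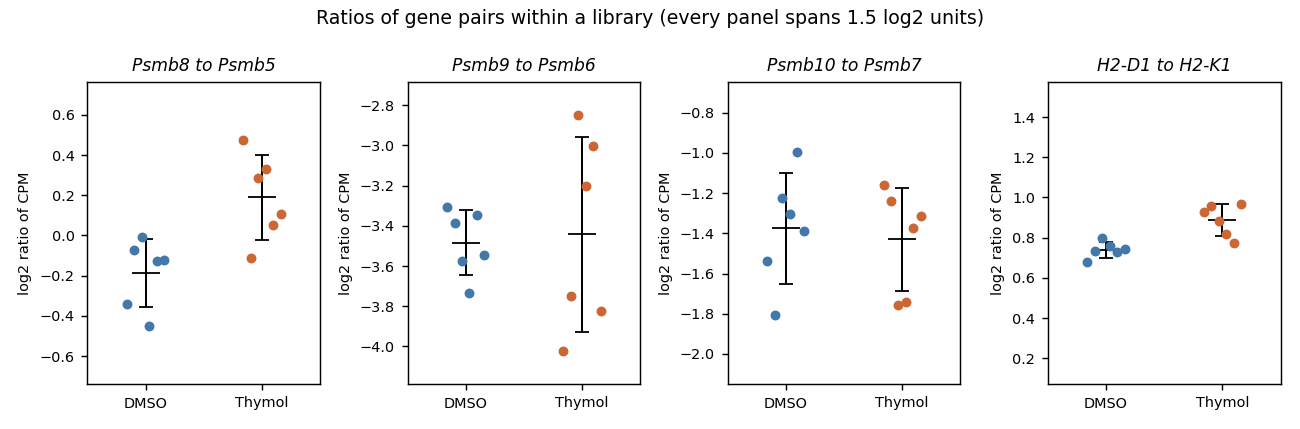
Log2 ratio of CPM of 2 genes within each library (y axis) for 3 pairs of inducible and constitutive proteasome subunits and for the 2 heavy chains, in 6 DMSO and 6 thymol libraries. Points are libraries, long bars means and whiskers 1 SD, and every panel spans 1.5 log2 units. The ratio of *Psmb8* to *Psmb5* rises from a mean of -0.19 to 0.19, and that of *H2-D1* to *H2-K1* from 0.74 to 0.89.

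How the members varied together among libraries of the same group was examined as deviations from the group means over the 12 libraries, with p adjusted over 3 pairs, of which 2 are described. *H2-K1* and *H2-D1* deviated together, with Pearson's r of 0.78 (permutation test with 100000 draws within groups, p = 0.0016, adjusted p = 0.0049). Spearman's rho was 0.59 (permutation p = 0.037, adjusted p = 0.11). Without the 2 libraries farthest from the median of *H2-K1*, DMSO replicate 3 and thymol replicate 1, r was 0.74. Within the groups r was 0.86 over the DMSO libraries and 0.75 over the thymol libraries. The libraries of these points differ in depth, and the 2 genes share some 3′ sequence, whose part in the correlation was not tested.

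*Tap1* and *Psmb9*, which are read from neighbouring start sites, gave r of 0.26 (permutation p = 0.50) and rho of 0.21 (permutation p = 0.55). Without DMSO replicate 4 and thymol replicate 3 r was 0.12. Over the DMSO libraries alone r was -0.28, and over the thymol libraries alone it was 0.49. The adjusted p over the 3 pairs was 0.52 for r and 0.58 for rho. As a description over the other pairs of members, *H2-K1* deviated with *Tap2* (r = 0.79) and *B2m* (r = 0.65), and *H2-D1* with *B2m* (r = 0.64) and *Tap2* (r = 0.56), while *Psmb8* and *Tap2* deviated in opposite directions (r = -0.55). Thymol replicate 1, the lowest thymol library for *H2-K1*, *H2-D1* and *Tap2*, is one of the 12 points of each.

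**Figure D4:**
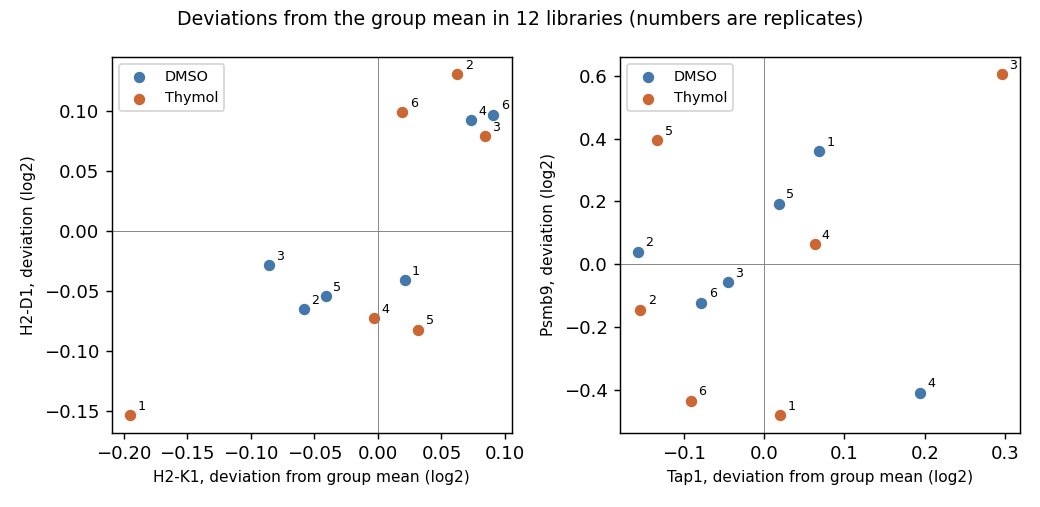
Deviation of each library from its group mean (log2) for *H2-K1* (x) against *H2-D1* (y) at left and for *Tap1* (x) against *Psmb9* (y) at right, with replicate numbers beside the points. At left the 12 libraries run from low to high on both axes (r = 0.78), and at right they scatter (r = 0.26).

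Among 5388 genes outside the member list whose mean exceeded 5 log2 CPM, the 5 whose deviations were most like those of *H2-K1* over the 12 libraries were *Tmed7* (r = 0.91), *Otulinl* (r = 0.90), *Efhd2* (r = 0.89), *Sdf2l1* (r = 0.88) and *Sem1* (r = 0.87). None of these 5 passed the test between thymol and DMSO, with limma adjusted p from 0.48 to 0.98. They were the top of a ranking of all these genes and carry no test.

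On the class II side, *H2-Ab1*, the one chain measured, had few reads, while *Ctsb* and *Ctss* ranked 27 and 69 of 10697 genes by mean level. Of 9 listed class II chains and exchange factors 3 were measured, and 0 of 3 passed the test. *H2-Ab1* (chromosome 17, 34257689 to 34269419, plus strand), the class II beta chain, ranged from 1.77 to 3.23 log2 CPM with a median of 2.73 with DMSO, and from 1.00 to 2.21 with a median of 1.36 with thymol. The thymol libraries lay under the whole DMSO range in 4 cases, and replicates 1 and 6 lay within it. The reads behind these values were 25 to 63 per DMSO library and 10 to 28 per thymol library. The log2 fold change was -1.06 ± 0.33 (SE, limma adjusted p = 0.069), and with 10 CPM added before the logarithm it was -0.33. It passed the threshold when DMSO replicate 3 (adjusted p = 0.035) or thymol replicate 1 (adjusted p = 0.042) was left out. In 19 of 21 alternatives *H2-Ab1* did not pass, with limma adjusted p up to 0.50.

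The exchange factor H2-DM frees the class II groove of the invariant chain fragment. *H2-DMa* was at 3.64 ± 0.31 log2 CPM in the DMSO group and 3.79 ± 0.23 in the thymol group (SD, n = 6 each; limma adjusted p = 0.84), and *H2-DMb1* was at 4.87 ± 0.062 and 4.87 ± 0.18 (limma adjusted p = 1.0). The groups overlapped for both, and 20.4% of the 3′ windows of *H2-DMb1* were shared with *H2-DMb2*. Of the cell types known for high class II levels, B cells were represented by 0 of 6 markers among the genes analysed here and dendritic cells by 1 of 9. The one dendritic cell marker was the integrin *Itgax*, which was higher with thymol at 35.1 to 41.8 CPM against 22.5 to 32.5 CPM with DMSO (limma adjusted p = 0.022) and is also carried by macrophages. The macrophage list held 1 of 17 markers that passed, the lower *Itgam* (log2 fold change -0.31, limma adjusted p = 0.00071). Of these 17 markers 9 were higher and 8 lower with thymol. The share of all genes that passed was 2.22%. Of the 12 measured fibroblast markers 2 passed, the collagens *Col3a1* (log2 fold change -0.54, limma adjusted p = 4.4e-10) and *Col1a1* (log2 fold change -0.28, limma adjusted p = 2.9e-05), both lower with thymol, and 9 of 12 had a negative difference. Whether the makeup of the cultures had a part in the class I or class II values was not tested.

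Of 10 listed symbols of class II processing and turnover 8 were measured. The other 2 are older symbols of *Marchf1* and *Marchf8*, so every gene of this list was measured. Of the 8 genes 2 passed, both higher with thymol, against 2.22% of all genes. The median log2 fold change of the 8 was 0.14. *Ctss*, cathepsin S, which cuts the invariant chain in antigen-presenting cells, ranged from 10.05 to 10.13 log2 CPM with a median of 10.09 with DMSO and from 10.20 to 10.44 with a median of 10.38 with thymol. The groups did not overlap. Its log2 fold change was 0.26 ± 0.046 (SE, limma adjusted p = 0.00014). *Ctsb*, cathepsin B, a general lysosomal protease, ranged from 11.28 to 11.39 log2 CPM with DMSO and from 11.45 to 11.64 with thymol, again without overlap, and its log2 fold change was 0.19 ± 0.043 (SE, limma adjusted p = 0.0042). Both lost the call without the mean-variance trend in limma, with adjusted p of 0.078 and 0.18, and *Ctsb* also lost it in the odd-numbered and the even-numbered libraries alone, with adjusted p of 0.13 and 0.16.

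The other processing genes did not pass. *Lgmn*, the asparagine endopeptidase, was at 7.45 ± 0.16 log2 CPM in the DMSO group and 7.69 ± 0.18 in the thymol group (SD, n = 6 each; limma adjusted p = 0.053). It passed without thymol replicate 1 (adjusted p = 0.0033), DMSO replicate 2 (adjusted p = 0.011) or thymol replicate 4 (adjusted p = 0.043). With all libraries it passed when odd against even numbering was a covariate (adjusted p = 0.034), with 10 CPM added (adjusted p = 0.038) and with the filter at a mean of 5 log2 CPM (adjusted p = 0.045). In 15 of 22 alternatives *Lgmn* did not pass, with limma adjusted p up to 0.38. *Ctsl*, cathepsin L, which has the role of cathepsin S in thymic epithelium, was at 9.64 ± 0.093 and 9.52 ± 0.046 (limma adjusted p = 0.22). *Ifi30*, the lysosomal thiol reductase, and *Sppl2a*, the protease that clears the invariant chain stub, had log2 fold changes of 0.036 and -0.036. *Marchf1* and *Marchf8*, ubiquitin ligases that send class II and co-stimulatory molecules to lysosomes, had log2 fold changes of 0.088 and 0.22 with limma adjusted p of 0.87 and 0.36.

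The genes around the class I path were read from lists of relatives, helpers and regulators. Over the 10 related lists, class II included, 86 genes were measured. The lists held 137 symbols, some of them older names of a gene that was also listed under its newer name. The 2 cathepsins were the only genes to pass (2.33%, beside 2.22% of all genes). Of the 86, 11 had an unadjusted limma p under 0.05, beside 1261 of all 10697 genes. Of 15 genes of peptide loading and trimming 15 were measured, 5 higher and 10 lower with thymol, and 0 passed. Their median log2 fold change was -0.020. The most abundant were the endoplasmic reticulum chaperones *Hspa5* (10.61 ± 0.061 log2 CPM with DMSO, log2 fold change -0.12), *Calr* (10.41 ± 0.048 and 10.36 ± 0.097) and *Pdia3* (9.39 ± 0.054 and 9.31 ± 0.020; SD, n = 6 each). Calreticulin and the oxidoreductase Pdia3 (ERp57) are parts of the loading complex, and their limma adjusted p were 0.82 and 0.56, with 0.24 for *Hspa5*.

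Of 18 class I relatives 6 were measured, 5 of them lower with thymol, and 0 passed. The most abundant were *Fcgrt*, the neonatal Fc receptor chain (5.90 ± 0.19 log2 CPM with DMSO, 5.77 ± 0.18 with thymol), *Mr1*, which presents vitamin metabolites to MAIT cells (5.47 ± 0.13 and 5.30 ± 0.28), and the nonclassical *H2-T22* (4.63 ± 0.18 and 4.42 ± 0.39; SD, n = 6 each). All bind *B2m* as their light chain. For *H2-T22* thymol replicate 1 was again the lowest library, at 3.71 log2 CPM. Of the immunoproteasome partners 4 of 5 were measured and 0 passed, with the assembly factor *Pomp* at 9.18 log2 CPM in both groups and the activator subunits *Psme1* (5.96 and 5.94) and *Psme3* (6.38 and 6.45). The 3 constitutive catalytic subunits had log2 fold changes of -0.12 for *Psmb5*, 0.031 for *Psmb6* and 0.020 for *Psmb7*, and 0 of 3 passed.

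Of 16 regulators of MHC transcription 14 were measured and 0 passed, with 7 higher and 7 lower. *Irf8*, a factor of macrophages and dendritic cells, came nearest, at 6.67 ± 0.11 log2 CPM in the DMSO group and 6.91 ± 0.15 in the thymol group (SD, n = 6 each; limma adjusted p = 0.079), with 3 thymol libraries above every DMSO library. The other abundant ones were *Spi1*, which encodes PU.1 (7.47 and 7.41), and *Rela*, a subunit of NF-κB (6.56 and 6.52). Named after their values were seen, *Irf1* differed by -0.27 ± 0.11 on the log2 scale (SE, limma adjusted p = 0.24), *Nlrc5* of -0.15 ± 0.30 (adjusted p = 0.92) and *Nfyc*, a subunit of the CCAAT box factor, of -0.47 ± 0.18 (adjusted p = 0.22). The thymol values of *Nfyc* all lay below its DMSO values.

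Interferon receptor signaling and its targets were also without a call. Of the 12 signaling genes 12 were measured, with a median log2 fold change of 0.029, and the 3 most abundant, *Jak1* (8.49 and 8.40 log2 CPM with DMSO and thymol), *Ifngr1* (6.60 and 6.58) and *Ifnar2* (6.31 and 6.37), differed by less than 0.1. *Stat2*, named after its values were seen, was at 4.58 ± 0.097 log2 CPM with DMSO and at 4.17 ± 0.37 in the thymol group (SD, n = 6 each; limma adjusted p = 0.20). Of 39 interferon-stimulated genes 16 were measured, 7 higher and 9 lower, with *Bst2* (5.88 and 5.72), *Parp14* (4.80 and 4.86) and *Ifi47* (4.02 and 4.04) the most abundant. Their median level was 3.12 log2 CPM, against 5.02 for all genes, so small changes were not detectable at this depth. Of 10 co-stimulation and checkpoint ligands 5 were measured and 0 passed, with *Icam1* (5.09 and 5.16), *Cd274*, which encodes PD-L1 (3.65 and 3.98), and *Cd276* (3.46 and 3.58) the most abundant.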

How the data were processed

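Primary MAFs were profiled in 12 QuantSeq libraries. Per the labels, the authors aligned reads with STAR 2.5.3 to GRCm38 and counted them with HTSeq 0.6.1. The authors filtered low genes and deposited log2 CPM values (log2 of TMM-scaled counts with a prior). Undoing the logarithm gave whole reads: below 200 reads, 100% of values were whole to a tolerance of 0.02, and the prior came to 1.96 reads. PCR reads are not independent molecules, so depth can understate the counting error, and it does not measure other spread between libraries.

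limma 3.58.1 (R 4.3.3) was fitted to the deposited log2 values of all 10697 genes, with 2 groups, a mean-variance trend, two-sided tests, Benjamini-Hochberg adjustment over all genes and a threshold of 0.05. Fold changes are thymol minus DMSO. Ratios used exact permutation tests, and correlations used permutation tests.

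The members and lists were chosen with earlier results of these data known. Named were all members with values, the called genes and the 3 highest by mean level of each related list, and the 5 genes most like *H2-K1*. The other class II processing genes, the single markers, *Irf1*, *Nlrc5*, *Nfyc* and *Stat2* were named after their values were seen. Of *Cd74* and *H2-Aa* no value was analysed here, so the planned class II median, their correlation and the genes most like *Cd74* were not run. The values of 1 related gene are not reported here. Alternatives changed the pseudocount, filter, scaling, variance model, values tested (voom on recovered reads), replicate block and libraries. Coordinates are GENCODE vM21 on GRCm38. Same-numbered libraries deviated together with r from -0.051 to 0.27 and were not treated as pairs.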

Additional observations from a re-analysis of the deposited data

Results flagged for a closer look

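In 86 groups of 6 libraries, those of the members, the related genes named by level or call, the ratios and the read totals, 6 held a library whose gap to its nearest neighbour was large against the range of the group (Dixon's test at the 95% level), where chance gives about 1 in 20 groups, here 4.3. The *H2-K1* level of thymol replicate 1 was 8.78 log2 CPM, with the next lowest thymol library at 8.97. The *Tap2* level of thymol replicate 1 was 5.24 log2 CPM, with the next at 5.84. The *Ifnar2* level of thymol replicate 1 was 6.63 log2 CPM, with the next highest at 6.40. The *Psme1* level of DMSO replicate 6 was 5.72 log2 CPM, with the next lowest at 5.95. The *Psme3* level of DMSO replicate 4 was 6.77 log2 CPM, with the next highest at 6.38. The recovered reads of thymol replicate 5 numbered 9049796, with the next highest thymol library at 6585162.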

How the results depend on the processing

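Over 22 alternatives the log2 fold change of *H2-D1* ran from 0.21 to 0.27, and 20 kept its call. The number of genes past the threshold, 238, became 57 without the mean-variance trend and 70 in the odd-numbered libraries, with 0 members past it in both. The even-numbered libraries gave 167 genes and 1 member, also with 3 libraries per group. The cause of these differences was not tested. DMSO replicate 1 correlated best with its same-numbered thymol library (r = 0.27), and the other DMSO libraries did not. A replicate block gave 332 genes and 1 member, with *H2-D1* at a limma adjusted p of 0.00032 and *Lgmn* past the threshold (limma adjusted p = 0.0095). Leaving out single libraries gave 172 to 270 genes and 1 member each. The class I median stayed between 0.048 and 0.11. *Tap1* and *Psmb9* have no value under the filter at a mean of 5 log2 CPM, and the class II median was not run. The alternatives for the heavy chain ratio and the class II genes were chosen after seeing the data.

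The ratio of *Psmb8* to *Psmb5* kept its direction in 16 alternatives, at 0.38 (adjusted p = 0.19) with the replicate block by sign flips, 0.43 (adjusted p = 0.30) in odd-numbered and 0.32 (adjusted p = 0.60) in even-numbered libraries. Before adjustment sign flips cannot go below 0.031 and 3 against 3 not below 0.10, so 3 against 3 cannot pass. After adjustment over 3 ratios, sign flips can pass only if another ratio is at its lowest possible p as well. These p-values therefore say little about stability. That of *H2-D1* to *H2-K1* was 0.13 in odd- and 0.17 in even-numbered libraries (exact permutation p = 0.20 and 0.10).

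Differences near 0 changed sign. Leaving out single libraries gave -0.059 to 0.040 for *Tap1*, -0.13 to 0.054 for *Tap2*, -0.030 to 0.035 for *Tapbp*, -0.049 to 0.17 for *Psmb9*, -0.059 to 0.048 for *H2-DMb1*, -0.077 to 0.16 for *Psmb9* to *Psmb6* and -0.14 to 0.022 for *Psmb10* to *Psmb7*. Median centring gave -0.010 for *Tap1*, -0.0049 for *Tapbp* and -0.010 for *H2-DMb1*. Voom gave -0.0024 for *Tap1*. Odd-numbered libraries gave -0.11 for *Tapbp* and -0.011 for *H2-DMa*. Even-numbered ones gave -0.047 for *Tap1*, -0.0078 for *H2-DMb1*, -0.036 for *Psmb9* to *Psmb6* and 0.068 for *Psmb10* to *Psmb7*.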
